A study of Mus musculus with 3 samples.

Results

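The genes described here encode olfactory and vomeronasal receptors, among the largest gene families of the mouse, and they served as a set of loci known to be closed outside the sensory epithelia of the nose. The set held every protein-coding autosomal gene of the GENCODE vM21 annotation (mouse build mm10) whose symbol begins with Olfr, Vmn1r or Vmn2r. It came to 1455 of the 21593 protein-coding genes counted, made up of 1127 Olfr, 207 Vmn1r and 121 Vmn2r genes. Each gene was counted as its body plus the 2 kb upstream, a region of 8.35 kb at the median (2.89 to 162 kb).

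The profiles were single-nucleus ATAC-seq (snATAC-seq), in which the transposase Tn5 cuts accessible DNA inside barcoded nuclei. All nuclei came from wild-type (WT) C57BL/6JRj embryos, with 1 library for each developmental stage (E12.5, E13.5, E15.5, counted as days of gestation), so stage, embryo and library cannot be told apart. Nuclei were isolated from several thick frozen sections per stage, cut to match the levels of the study's spatial maps from littermates, stained with the DNA dye 7-AAD and sorted. The deposited cell table listed 153, 970 and 756 nuclei in 12 clusters numbered 0 to 11, and nothing in the labels says how many embryos were pooled.

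Odorant receptors (Olfr) are G protein-coupled receptors that each olfactory sensory neuron expresses, as a rule, from a single allele of a single gene. Vmn1r and Vmn2r receptors detect pheromones in the apical and basal neurons of the vomeronasal organ, where they couple to different G proteins. The genes lie in large tandem arrays of low GC content, and in other tissues the arrays are closed. Markers of olfactory sensory neurons were checked in the 12 clusters. No cluster had more than 3 of 10 raised at least 1.5-fold, and cluster 3 had 1 of 10, the transcription factor gene Ebf2. Ebf2 was also the 1 marker raised in clusters 1 and 7.

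The promoters of 6 genes are printed to show what kind of sequence lies before the genes that the results turn on. They are the 250 bases before the annotated start, 5′ to 3′ on the strand of the gene, read from build GRCm38.p6 (mm10). Capitals mark TAATTA, the core letters bound by homeodomain proteins such as LHX2 and EMX2, and CCCNNGGG, the core letters bound by EBF proteins, both searched on both strands. Olfr71 (chr4:43710256-43710505, minus strand) had the highest level of the set, and Olfr70 (chr4:43700808-43701057, minus strand), its neighbour, the second highest of the genes ranked. Vmn1r4 (chr6:56923765-56924014, plus strand) and Vmn2r19 (chr6:123308083-123308332, plus strand) were the highest of their families. Olfr1309 (chr2:111990282-111990531, minus strand) had the smallest p-value for cluster 3, and Olfr1163 (chr2:88071831-88072080, minus strand) had the lowest level among genes with at least 90% unique 50-base words.
Olfr71: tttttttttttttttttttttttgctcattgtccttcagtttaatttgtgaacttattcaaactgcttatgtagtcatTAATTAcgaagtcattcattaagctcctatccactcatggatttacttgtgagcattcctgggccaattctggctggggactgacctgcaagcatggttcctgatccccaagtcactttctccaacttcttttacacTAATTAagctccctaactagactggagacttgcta
Olfr70: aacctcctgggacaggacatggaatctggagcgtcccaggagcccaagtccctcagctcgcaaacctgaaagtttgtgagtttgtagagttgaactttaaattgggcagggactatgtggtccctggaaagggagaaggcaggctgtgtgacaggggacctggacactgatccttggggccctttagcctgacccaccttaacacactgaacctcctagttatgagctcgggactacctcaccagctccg
Vmn1r4: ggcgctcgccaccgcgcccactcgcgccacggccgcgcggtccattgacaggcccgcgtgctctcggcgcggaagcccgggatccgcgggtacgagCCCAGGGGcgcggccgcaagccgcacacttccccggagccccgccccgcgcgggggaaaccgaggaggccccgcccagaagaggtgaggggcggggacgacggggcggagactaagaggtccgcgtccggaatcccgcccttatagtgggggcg
Vmn2r19: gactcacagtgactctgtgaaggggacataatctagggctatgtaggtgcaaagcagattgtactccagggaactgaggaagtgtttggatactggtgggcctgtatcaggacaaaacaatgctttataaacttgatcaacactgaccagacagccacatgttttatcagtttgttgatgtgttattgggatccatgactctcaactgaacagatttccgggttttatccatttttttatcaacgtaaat
Olfr1309: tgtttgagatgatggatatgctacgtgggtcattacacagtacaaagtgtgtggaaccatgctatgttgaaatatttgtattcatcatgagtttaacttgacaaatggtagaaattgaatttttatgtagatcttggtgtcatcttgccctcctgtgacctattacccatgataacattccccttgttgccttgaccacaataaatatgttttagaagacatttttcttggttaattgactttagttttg
Olfr1163: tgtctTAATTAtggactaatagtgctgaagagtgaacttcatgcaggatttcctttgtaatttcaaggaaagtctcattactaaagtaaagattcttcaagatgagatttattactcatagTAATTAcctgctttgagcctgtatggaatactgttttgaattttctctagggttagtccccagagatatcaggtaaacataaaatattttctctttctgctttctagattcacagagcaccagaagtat

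The promoter windows searched ran from 250 bases before to 50 bases after the start. TAATTA was present in 340 of 1455 receptor promoters (23.4%) and in 5.25% of all 21593 promoters. CCCNNGGG was present in 209 receptor promoters (14.4%) and in 15.8% of all promoters. By family, CCCNNGGG was found in 15.2% of Olfr, 3.38% of Vmn1r and 25.6% of Vmn2r promoters, and TAATTA in 24.1%, 23.2% and 16.5%. The median GC content of the windows was 37.7% for receptors and 55% for all genes, so an AT-rich word and a GC-rich word had unequal chances in these sets. The printed Vmn1r4 window is the GC-rich sequence among the 6 and holds CCCNNGGG, and the region of this gene overlaps Nt5c3, a nucleotidase gene.

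Levels are given as unique fragments per kb of region and per 1000000 unique fragments of the same nuclei on chromosomes 1 to 19, X and Y (FPKM). Over all nuclei the receptor genes had levels of 0.146, 0.125 and 0.121 in stage order, E12.5 first (mean 0.131 ± 0.0136 SD, n = 3 libraries). Intergenic bins, which are 5 kb bins at least 10 kb from any annotated gene, had 0.271, 0.237 and 0.241. The other 19020 autosomal protein-coding genes had 0.625, 0.686 and 0.681. In every library the receptors lay below the intergenic bins and far below other genes.

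The receptor level was 0.522 ± 0.0192 (SD, n = 3) of the intergenic level and 0.198 ± 0.0314 of that of other genes. Spreading all fragments evenly over the genome would give a level of 0.378, of which the receptors, counted by fragment midpoint, held 0.341 ± 0.0356 and the intergenic bins 0.643 ± 0.0471. The low level was shared by the DNA between the genes. Bins in the gaps of the receptor arrays had 0.134, 0.120 and 0.115, and 501 receptor pseudogenes had 0.128, 0.107 and 0.105. Against the gap bins the receptor genes stood at 1.06 ± 0.0260. Reads from near-identical copies can be lost in mapping, and only 971 of 1455 genes had at least 90% of their 50-base words occurring at a single place in the genome. For those 971 genes the level was 0.596 ± 0.0238 of the intergenic level, and with both sets counted per kb of unique words it was 0.545. The gap bins had 64.0% unique words and the receptor genes 84.2%, and counted per kb of unique words the receptors stood at 0.806 ± 0.0198 of the gap bins, so whether they lay above or below the gaps depended on this count.

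The 2 kb upstream of the genes were a little more accessible than the bodies in all libraries. The upstream parts had 0.166, 0.144 and 0.145, and the bodies 0.145, 0.123 and 0.118. Both were counted by overlap, which raises the shorter part more, and genes that overlap another gene were kept. How much this adds to the difference was not tested. Only 15 receptor genes exceeded the uniform level, and 1 exceeded the median of other genes (0.734). The median receptor gene had a mean level of 0.129, with the 10th and 90th percentiles at 0.0717 and 0.210. No fragment at all fell in 29 of the genes, of which 26 were Vmn1r, 2 Vmn2r and 1 Olfr. None of the 29 had at least 90% unique words, since the lowest mean level among such genes was 0.0572 (Olfr1163). The part of mapping loss in these zeros was not tested.

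Insertions of Tn5 at transcription start sites (TSSs) describe the shape of the signal, whatever its level. For receptor genes the insertions per base within 50 bp of the TSS were 1.22, 1.39 and 1.48 times those 1900 to 2000 bp away (1.36 ± 0.131 SD, n = 3). Other genes had 10.4, 13.8 and 17.4. Without the 17 receptor genes whose regions overlap another protein-coding gene the receptor ratios were 1.1, 1.15 and 1.18, and the E12.5 interval of 0.977 to 1.24 included 1. The receptor starts as a set showed little of the peak seen at other starts.

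**Figure D1:**
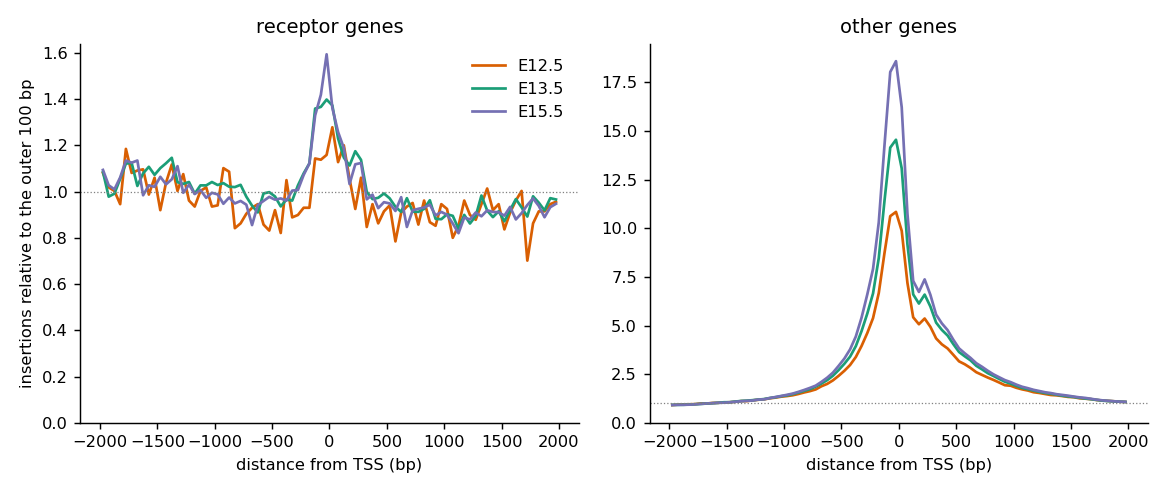
Tn5 insertions around TSSs by distance from the start (bp), relative to the outer 100 bp, for receptor genes (left) and other protein-coding genes (right), 1 line per library. Receptor genes reach 1.22 to 1.48 times the flank within 50 bp of the start, and other genes 10.4 to 17.4 times; the vertical axes differ.

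Fragment lengths differed as well. Fragments shorter than the DNA wrapped around a nucleosome made up 50.5%, 55.6% and 53.6% of receptor fragments, 54.4%, 60.5% and 57.7% of intergenic fragments and 61.9%, 67.9% and 66.0% of fragments in other genes. This order of the sets held in all 3 libraries, and the exact Clopper-Pearson 95% intervals of the sets did not overlap within a library.

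The families differed in level. Olfr genes had 0.169, 0.144 and 0.140 (mean 0.151 ± 0.0155), Vmn1r genes 0.132, 0.117 and 0.111 (0.120 ± 0.0109) and Vmn2r genes 0.0968, 0.0813 and 0.0773 (0.0851 ± 0.0103). The order Olfr, Vmn1r, Vmn2r held in every library, and the 95% counting intervals of the pooled levels did not overlap inside a library. The genes themselves overlapped widely in level. Their 10th to 90th percentiles were 0.0904 to 0.223 (Olfr), 0 to 0.178 (Vmn1r) and 0.00576 to 0.135 (Vmn2r). Uniqueness ran in the same order, with medians of 95.3%, 86.8% and 79.4% of words. Among genes with at least 90% unique words the means were 0.157, 0.134 and 0.112, so the gaps between families narrowed and the order stayed. The part that mapping played in the remainder was not tested.

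Level also moved with base composition. Over the 971 genes with at least 90% unique words, level and GC content had a Pearson r of 0.679 and a Spearman rho of 0.606. The genes share libraries, arrays and sequence, so this describes the genes and carries no p-value. The 10 highest of these genes had a GC content of 45.2% to 51.7%, and the 5 lowest 31% to 35.9%.

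Olfr71 led the set with 0.891, 1.00 and 1.06 FPKM, a mean of 0.984 ± 0.0841 that stood at the 65.5th percentile of autosomal genes. Olfr70 beside it had 0.710, 0.691 and 0.665. Olfr156, nearby on chromosome 4, had 0.302, 0.565 and 0.641. Its ratio of E12.5 to both later libraries was 0.510 (95% interval 0.282 to 0.852), whereas those of Olfr71 and Olfr70 were 0.871 and 1.04 with intervals that included 1. The other high genes were Olfr94 on chromosome 17, Olfr543, Olfr544 and Olfr523 on chromosome 7, Olfr1358 on chromosome 10, Olfr750 on chromosome 14 and Olfr1410 on chromosome 1, with means from 0.396 to 0.574. Olfr543 and Olfr544 overlap each other and share fragments.

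Among genes with at least 90% unique words, Olfr1163 was at the low end and had 0, 0.0707 and 0.101, with 0 fragments at E12.5, where 3 fragments are the limit that a count of 0 allows. Olfr1243, Olfr136, Olfr938 and Vmn1r66 followed with means from 0.0615 to 0.0650. Their regions held 1 to 6 fragments each at E12.5, so their order cannot be resolved there.

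Vmn1r4 had the highest level of its family, 0.509, 0.759 and 0.756. Its region overlaps Nt5c3. Its promoter window held 1567 fragments over the 3 libraries, while that of Olfr71 held 43, of Olfr70 33 and of Olfr1163 3. The highest Vmn2r gene was Vmn2r19 with 0.281, 0.190 and 0.147 and 8 fragments in its promoter window. Its 30.2 kb region held 73, 385 and 175 fragments, and the promoter window is only a small part of that length. By level the window had 0.470, at percentile 92.2 of receptor promoters, from those 8 fragments.

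Levels in the 300-base promoter windows are not comparable with those of whole regions, since a fragment counts wherever it overlaps a window. Without genes that overlap another gene, promoters with CCCNNGGG had 0.246 ± 0.0252 (SD, n = 3) and those without 0.208 ± 0.0184. Promoters with TAATTA had 0.203 ± 0.0114 and those without 0.217 ± 0.0210. Both differences kept their direction in the 3 libraries, though at E15.5 promoters with and without TAATTA had 0.205 and 0.206.

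The arrays were formed by joining receptor genes within 1 Mb. There were 66, of which 15 were single genes and 28 held at least 10 genes, 1329 in all. Genes with no receptor neighbour had a level of 0.177 ± 0.0301, genes in arrays of 2 to 9 had 0.135 ± 0.0108, and genes in larger arrays 0.129 ± 0.0139. Within the larger arrays the first and last 2 genes had 0.173 ± 0.0146 and the inner genes 0.123 ± 0.0139. Without genes that overlap another gene these were 0.156 ± 0.0223 and 0.124 ± 0.0140, and the edge stayed above the inner part in each library. Median GC content was 38.3% for genes with no neighbour, 38.8% in arrays of 2 to 9 and 36.8% in larger arrays. Edge genes had 39.0% and inner genes 36.6%, and the part of GC content in these levels was not tested.

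Levels of the 28 arrays ranged from 0.0307 to 0.215. The lowest was the array from Vmn1r91 to Vmn1r183 on chromosome 7, where the median gene had 9.95% unique words. The highest was Olfr30 to Olfr223 on chromosome 11. The largest array, Olfr987 to Olfr1274-ps on chromosome 2, held 227 genes and had 0.154, 0.114 and 0.123. Olfr543 to Olfr692 on chromosome 7 (129 genes) had 0.180, 0.165 and 0.144, and Olfr160 to Olfr986 on chromosome 9 (95 genes) had 0.172, 0.136 and 0.148. Vmn1r55 to Vmn1r89 on chromosome 7, with 72 genes of all 3 families and a median of 76.0% unique words, had 0.0599, 0.0531 and 0.0502. Olfr693 to Olfr519 on chromosome 7 (68 genes) had 0.139, 0.117 and 0.122. E12.5 was the highest library in all 5 of these arrays.

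**Figure D2:**
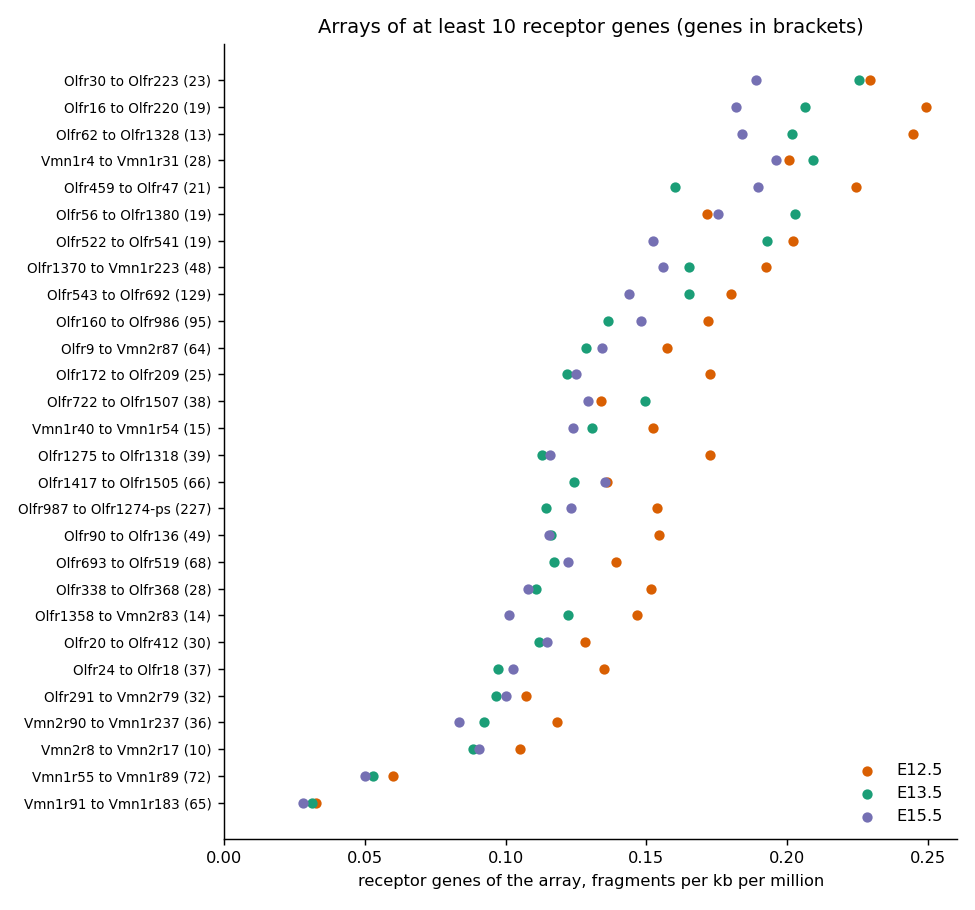
Level of receptor genes (FPKM, horizontal axis) in each of the 28 arrays of at least 10 genes, named by first and last gene with the number of genes, 1 point per library. The means run from 0.0307 to 0.215, and E12.5 is above the mean of both later libraries in 25 arrays.

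The next question was how cluster 3 differs from the other nuclei. The cluster numbers came with the data. The study's methods describe clusters from an integration of these nuclei, counted in ENCODE peaks, with the spatial profiles, so the numbers may rest on these same fragments, and what follows describes the cluster and is no test of it. Cluster 3 had 6 of 6 mesenchyme markers raised, but 5 of its leading 10 genes by fold were receptor genes (Olfr1254, Olfr1309, Olfr273, Vmn1r184 and Olfr60), and it was given no cell type name. Receptor genes were also 5 of the leading 10 in cluster 2 and 4 of 10 in cluster 4, and 0 or 1 in each of the others. They were 1455 of the 21593 genes counted. The median receptor gene had 4, 19 and 7 fragments in cluster 3, so a rank by fold is imprecise for them and makes them no markers. Cluster 3 held 25, 133 and 50 nuclei, which were 16.3%, 13.7% and 6.61% of the nuclei but 40.4%, 22.1% and 13.4% of the fragments. Its share of receptor fragments was 44.1%, 26.1% and 18.5%, above its share of all fragments in each library.

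The receptor level in cluster 3 was 0.160, 0.148 and 0.167, against 0.137, 0.118 and 0.114 in all other nuclei of the same libraries. The ratios were 1.16 (95% interval 1.13 to 1.2), 1.25 (1.23 to 1.26) and 1.47 (1.44 to 1.5), where the exact intervals cover counting error only. On the log2 scale the mean was 0.36 ± 0.17 (SD, n = 3), higher in 3 of 3 libraries. Intergenic bins were also higher in cluster 3, by 1.14, 1.23 and 1.19 (log2 0.25 ± 0.055), gap bins by 1.13, 1.19 and 1.43, while other genes were lower, at 0.897, 0.867 and 0.883. Relative to intergenic bins the receptor difference was 0.12 on the log2 scale. At E15.5 the receptors and the array gaps differed more than the intergenic bins, and at E12.5 and E13.5 all 3 sets differed by similar ratios.

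All 3 families took part. The ratio of cluster 3 to the rest, as the geometric mean over libraries, was 1.25 for Olfr, 1.35 for Vmn1r and 1.43 for Vmn2r genes, and each family was above 1 in each library. Of the 28 large arrays, 18, 24 and 28 were above the rest of their library, and 16 were so in all 3 libraries. The array means ran from 0.928 (Olfr56 to Olfr1380) to 1.61 (Olfr1358 to Vmn2r83). Single members were higher in cluster 3 for 760, 1011 and 1048 genes and lower for 626, 412 and 364, with 427 higher in all 3 libraries and 57 lower in all 3. The median gene had 4, 19 and 7 fragments in cluster 3, so most single-gene ratios were imprecise. The same counts were not made for the other genes, and what part of this lean is particular to receptor genes was not tested.

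**Figure D3:**
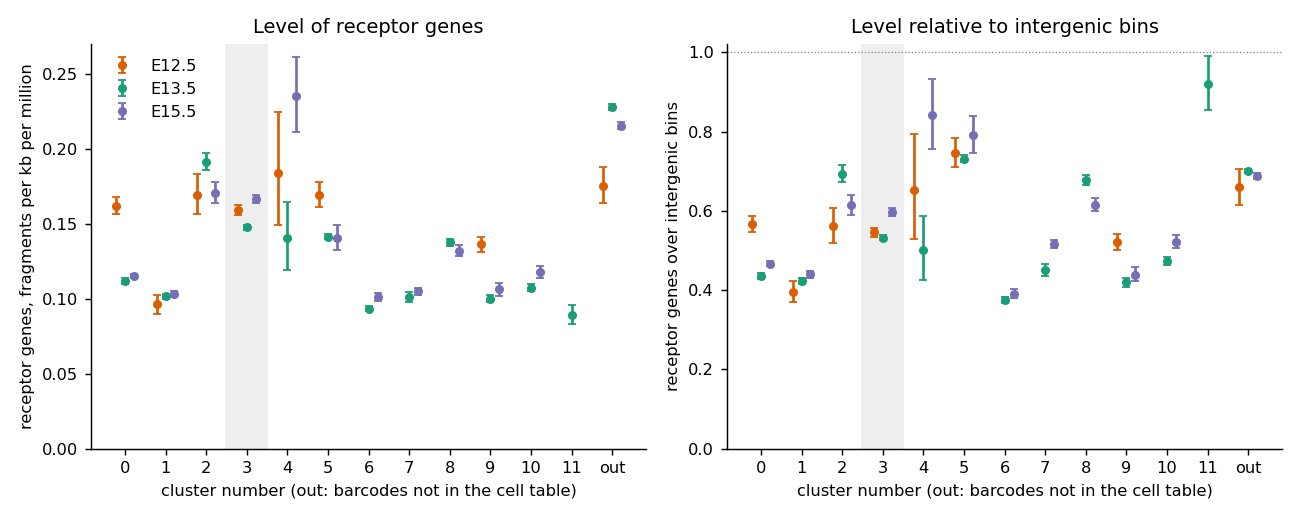
Receptor level (left, FPKM) and the same level over that of intergenic bins (right) for each cluster with at least 10 nuclei in a library and for barcodes outside the cell table; bars are 95% counting intervals. Cluster 3 (shaded) lies at 0.148 to 0.167 on the left and at 0.532 to 0.597 on the right, where clusters 5, 8 and 2 lie higher.

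Cluster 3 was not the highest cluster in any library. By level, among clusters with at least 10 nuclei it was at rank 5 of 7, rank 2 of 12 and rank 3 of 11 in stage order. The shallow cluster 2 was above it in 3 of 3 libraries, with levels from 0.170 to 0.192. Cluster 4 was above it in 2 of 3, with levels from 0.141 to 0.235, but its median nucleus had 769, 1117.5 and 618.5 fragments. Relative to intergenic bins, cluster 3 stood at 0.546, 0.532 and 0.597. Cluster 5, with all 7 erythroid markers raised, stood at 0.731 to 0.791, with the highest mean (0.756 ± 0.0310 SD) of the clusters present in 3 libraries. Cluster 11, with 5 of 7 erythroid markers and 35 nuclei at E13.5, stood at 0.920 there. Cluster 6, with 5 of 6 neuron markers raised, was the lowest at E13.5 and E15.5, at 0.376 and 0.391. Cluster 1, with 6 of 6 mesenchyme markers, had the lowest mean of the clusters present in 3 libraries (0.419 ± 0.0228 SD), although cluster 9 lay slightly below it at E13.5, at 0.420 beside 0.423, and at E15.5, at 0.439 beside 0.440, with overlapping intervals. In clusters 5 and 11 the intergenic level was low, at 0.178 to 0.227 and 0.0972, beside receptor levels of 0.141 to 0.170 and 0.0894.

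Within nuclei the same order appeared. Among nuclei with at least 20000 fragments the median receptor level was 0.139, 0.138 and 0.161 in cluster 3 and 0.116, 0.0967 and 0.0971 in the others. In cluster 3, 20 of 25, 107 of 133 and 48 of 50 such nuclei lay above the median of the others. The ranges overlapped widely, from 0.0904 to 0.268 in cluster 3 and from 0.0508 to 0.284 in the others at E12.5.

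Cluster 3 also had a small share of its fragments at TSSs (1000 bp before to 100 bp after a start). Its shares were 5.56%, 6.49% and 6.86% against 9.12%, 11.2% and 11.8% in the other nuclei. Among clusters of at least 10 nuclei it had the smallest share at E12.5. Clusters 2 (5.94%) and 4 (4.72%) were below it at E13.5, and cluster 4 alone (5.41%) at E15.5. Level and TSS share ran opposite across nuclei, with a Spearman rho of -0.63, -0.63 and -0.71 over 84, 769 and 510 nuclei. The 2 measures share their denominator, so these values are descriptions. Between nuclei of like TSS share, the cluster difference turned at E12.5 and E13.5 below a share of 9%. Below 6% the median receptor level in cluster 3 and in the others was 0.156 and 0.172 for E12.5, 0.164 and 0.171 for E13.5, and 0.180 and 0.165 for E15.5. From 6% to 9% it was 0.130 and 0.171, 0.128 and 0.146, and 0.158 and 0.138. Cluster 3 was thus below the others in both bins at E12.5 and E13.5 and above them in both at E15.5. These bins held 9 to 95 other nuclei and 11 to 60 nuclei of cluster 3 in a library. From 9% to 12% it was 0.122 and 0.102, 0.0954 and 0.0977, and 0.141 and 0.105, so cluster 3 was above the others at E12.5 and E15.5, with only 2, 14 and 5 nuclei. Above 12% cluster 3 held 0, 1 and 3 nuclei.

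**Figure D4:**
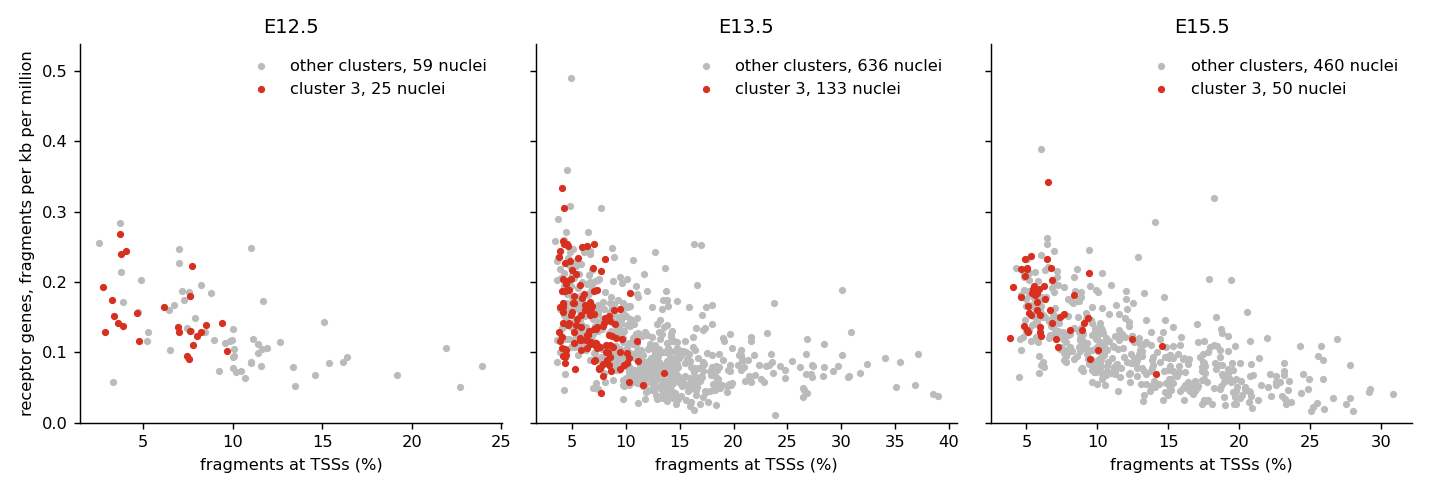
Receptor level (FPKM, vertical) against the share of fragments at TSSs (percent, horizontal) for nuclei with at least 20000 fragments, 1 panel per library, cluster 3 in red and other clusters in grey. Levels are lower where the TSS share is higher in all 3 libraries (Spearman rho -0.63, -0.63 and -0.71), and cluster 3 occupies the left of each panel.

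The shape of the signal was compared within libraries. The TSS ratio of receptor genes was 1.11, 1.25 and 1.34 in cluster 3 and 1.31, 1.43 and 1.5 in the others, lower in cluster 3 in 3 of 3 libraries, with 95% intervals that overlapped in each. Without the 17 genes that overlap another gene it was 1.07, 1.17 and 1.23 against 1.13, 1.15 and 1.16, lower in cluster 3 at E12.5 alone. Other genes had 7.07, 8.23 and 9.59 in cluster 3 and 12.4, 15.3 and 18.5 in the others. Short fragments made up 51.6%, 57.3% and 54.7% of receptor fragments in cluster 3 and 49.6%, 55.1% and 53.4% in the others, so they were somewhat more frequent in cluster 3 in each library. The same held for intergenic bins, with 55.2%, 61.3% and 57.9% in cluster 3 and 53.8%, 60.2% and 57.7% in the others. Other genes went the opposite way, with 61.3%, 67.7% and 64.1% in cluster 3 and 62.2%, 68.0% and 66.3% in the other clusters.

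A fit across genes asked which single genes differ between cluster 3 and clusters 0, 1, 2, 5 and 9, the clusters with at least 10 nuclei and 100000 gene fragments in all libraries. Fragments were summed per cluster and library, and edgeR's quasi-likelihood test was run with the library as a block. Of 17836 genes tested, 37 were called higher in cluster 3 (0.207%) and 1 lower (0.00561%), at an adjusted p under 0.05. The lower gene was Svip (log2 fold change -1.28, SE 0.28, adjusted p = 0.0398), named after its values were seen. With 1 barcode kept per group of nuclei that share fragments, 1 gene was called, and Svip had an edgeR adjusted p of 0.147. Only 227 of 1455 receptor genes had enough fragments to be tested, and 0 were called in either direction. Fragments in cluster 3 alone could bring a gene into the test, so the direction of the tested genes is no support. At an unadjusted p under 0.05 there were 39 of 227 receptor genes and 2829 of 17836 genes (15.9%). DESeq2 called 574 genes and 0 receptor genes, but it gave no adjusted p for 223 of the 227.

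The receptor gene with the smallest p was Olfr1309 on chromosome 2. Its level was 0.371, 0.327 and 0.350 in cluster 3, from 16, 60 and 23 fragments, and 0.126, 0.0957 and 0.172 in the rest. The edgeR log2 fold change was 1.63 (SE 0.45, adjusted p = 0.0941). The gene was chosen for its small p, so its higher cluster 3 values in all 3 libraries are no separate support. Its adjusted p missed the threshold, and 427 receptor genes were higher in cluster 3 in all 3 libraries. Vmn1r18 had a log2 fold change of 1.47 (SE 0.44, edgeR adjusted p = 0.117), and Olfr71, the most accessible gene of the set, 1.01 (SE 0.31, edgeR adjusted p = 0.128). Olfr71 had 1.42, 1.37 and 1.23 in cluster 3 and 0.532, 0.900 and 1.03 in the rest. Vmn2r66 and Vmn2r107 followed with 1.42 and 1.30. In the other direction Vmn1r4 had -0.53 (SE 0.22, edgeR adjusted p = 0.225), with 0.415, 0.471 and 0.461 in cluster 3 and 0.573, 0.841 and 0.802 in the rest. It is the gene whose region overlaps Nt5c3. Olfr934, Olfr633, Olfr1369-ps1 and Olfr558 followed with edgeR adjusted p-values from 0.389 to 0.626. Without the E12.5 library 1 receptor gene passed, Olfr1254 on chromosome 2, which had too few fragments to be tested with all libraries (log2 fold change 2.29, SE 0.57, edgeR adjusted p = 0.0492). That was 1 of 832 receptor genes tested, where 0.779% of 19375 genes were higher in cluster 3. Leaving out E13.5 or E15.5 left 0 genes called of any kind.

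The last question was how the E12.5 library differs. With 1 library per stage no test between stages was possible, and intervals cover counting error only. The receptor level at E12.5 was 1.17 times that of E13.5 (1.15 to 1.19) and 1.21 times that of E15.5 (1.19 to 1.23), or 1.19 times their mean (1.17 to 1.21). Intergenic bins differed by 1.13, and relative to them the receptor ratio was 1.05. Scaled to the fragments in genes instead of all fragments the ratio was 1.30. The ratio was 1.19 for Olfr, 1.16 for Vmn1r and 1.22 for Vmn2r genes, and the differences between families were not tested. By base composition it was 1.26 in the 485 genes with the lowest GC content, 1.23 in the 485 next and 1.13 in the 485 with the highest.

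The size of the stage ratio varied between clusters, a variation that was not tested. The E12.5 ratio over the mean of both later libraries was 1.43 in cluster 0, 1.32 in cluster 9 and 1.2 in cluster 5. It was 1.01 in cluster 3, with 1.08 over E13.5 (1.05 to 1.11) and 0.957 over E15.5 (0.931 to 0.983). It was 0.979 in cluster 4, with 1.31 over E13.5 (1.01 to 1.7) and 0.783 over E15.5 (0.619 to 0.981). It was 0.941 in cluster 1 and 0.936 in cluster 2. Clusters 0 and 9, neuronal and progenitor by their markers, and the erythroid-marked cluster 5 were higher at E12.5 over both later libraries. Clusters 1 and 2 were below 1 over both, but not clear of counting error throughout. Cluster 1 had 0.948 over E13.5 (0.885 to 1.02) and 0.933 over E15.5 (0.870 to 0.9995), and cluster 2 had 0.886 (0.814 to 0.962) and 0.992 (0.908 to 1.08). Each of clusters 0, 1, 5 and 9 had only 10 or 11 nuclei at E12.5. With clusters weighted equally the ratio was 1.09, and without cluster 3 it was 1.18.

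**Figure D5:**
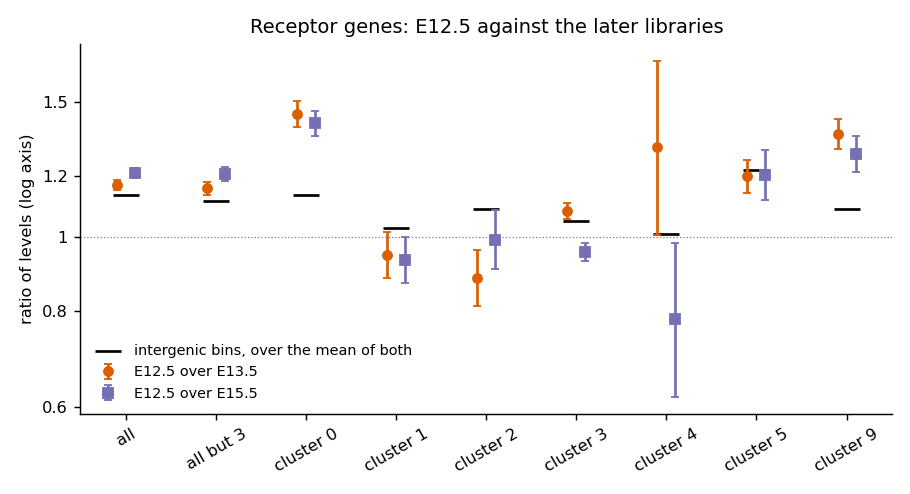
Receptor level at E12.5 over E13.5 (circles) and over E15.5 (squares), for all nuclei, all but cluster 3, and each cluster with at least 10 nuclei in every library, on a log axis with 95% counting intervals; black bars give intergenic bins over the mean of both. Clusters 0, 5 and 9 lie above 1 on both ratios, clusters 1 and 2 below, each with 1 interval that includes 1, and clusters 3 and 4 on either side, cluster 4 at 1.31 and 0.783.

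A single nucleus bore on the value. The deepest E12.5 nucleus with a receptor level above that of its library, in cluster 3, held 246586 fragments, which is 2.87% of the library, at a receptor level of 0.244. Without it the ratio was 1.17. The E12.5 library also had the lowest share of fragments at TSSs, 7.68% against 10.2% and 11.2%. Outside cluster 3, nuclei of like TSS share had median levels of 0.172, 0.171 and 0.165 in stage order below 6%, 0.171, 0.146 and 0.138 from 6% to 9%, 0.102, 0.0977 and 0.105 from 9% to 12%, and 0.0829, 0.0750 and 0.0702 above 12%. E12.5 was the highest in 3 of these 4 bins, and the part of the TSS share in the stage difference was not tested.

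Single genes were compared where the 3 libraries together held at least 50 fragments, and a gene was counted when E12.5 differed at least 1.5-fold from both later libraries together with an interval clear of 1. Of 1288 receptor genes, 173 were higher at E12.5 (13.4%), where 2.92% of all 19689 genes tested were. Lower were 20 receptor genes (1.55%), against 5.33% of all genes. Relative to the intergenic bins of each library 98 receptor genes were higher (7.61%) and 54 lower (4.19%), against 1.34% and 17.3% of all genes. Without cluster 3 they were 141 (11.8%) and 19 (1.6%) of 1191, against 3.32% and 5.74%. The median ratio was 1.18 for receptor genes and 0.900 for the 18401 other genes tested. By family 135 of 1054 Olfr genes tested (12.8%), 19 of 137 Vmn1r (13.9%) and 19 of 97 Vmn2r (19.6%) were higher.

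The highest ratio was that of Olfr1164 on chromosome 2, with 0.486, 0.130 and 0.0813 from 13, 27 and 10 fragments, a ratio of 4.35 (2.12 to 8.37). Olfr19 on chromosome 16 had 0.339, 0.0701 and 0.0983, a ratio of 4.20 (2.32 to 7.29), and 14 of its 18 fragments at E12.5 came from cluster 3, without which its ratio was 1.6. Olfr291, Olfr392 and Olfr125 followed with ratios of 3.85, 3.25 and 3.20. These 5 genes had 13 to 23 fragments at E12.5. Olfr113 and Olfr700 had 0 fragments at E12.5, where 3 are the limit that a count of 0 allows, and 40 and 51 at E13.5, 26 each at E15.5. Olfr1484, Olfr731 and Olfr1339 had 1, 2 and 3 fragments at E12.5, and their ratios were 0.165 (0.00412 to 0.948), 0.231 (0.0277 to 0.856) and 0.240 (0.0489 to 0.713). Outside cluster 3, Olfr1484 and Olfr1339 had 0 fragments at E12.5.

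By array, E12.5 was above both later libraries pooled in 25 of the 28, with the interval above 1 in 22. The highest array ratio was 1.51 for Olfr1275 to Olfr1318 on chromosome 2. In 1 array the interval lay below 1, at 0.891 (0.813 to 0.973) for Olfr56 to Olfr1380 on chromosome 11, where Olfr56 overlaps several interferon-inducible genes.

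The counted genes of the olfactory pathway outside the set each had a level above the receptors' 0.131, although some were low. Of 12 olfactory signalling genes listed, 10 were counted, with a pooled level of 0.495 ± 0.0101 (SD, n = 3), from Ano2, a chloride channel (0.296), to Gng13, a G protein subunit (1.54). The receptor trafficking genes Rtp1 (0.383), Rtp2 (0.346) and Reep1 (0.632) pooled to 0.597, where a pool weights each gene by its length. Ano2, Rtp2 and Rtp1 stood at percentiles 21.9, 25.1 and 28.0 of autosomal genes. The 4 vomeronasal signalling genes pooled to 1.15, led by Gng8 (4.22). The 19 factors of receptor choice and olfactory neuron identity pooled to 0.858, from Smchd1, a chromatin repressor (0.412), to Atf5, a stress-response factor (6.32). In the edgeR fit 0 of 10 signalling, 0 of 2 trafficking and 0 of 4 vomeronasal genes were called, with 2, 0 and 0 at an unadjusted p under 0.05. Over all genes 0.207% were called higher and 15.9% had such a p. Of the 19 factors 1 was higher, Ebf2 (log2 fold change 0.96, SE 0.19, edgeR adjusted p = 0.0220), 0 were lower, and 4 had an unadjusted p under 0.05. The edgeR adjusted p of Ebf2 was 0.672 without E13.5, 0.463 without E15.5 and 0.239 with 1 barcode per group of nuclei that share fragments, so the call was lost there.

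Other tandem gene families that are silent in most tissues gave a further comparison. The trace amine receptors (Taar, 15 genes) had a mean level of 0.221, formyl peptide receptors (Fpr, 7 genes) 0.240, taste receptors (38 genes) 0.425, hair keratin-associated genes (Krtap, 57 genes) 0.261 and beta-defensins (Defb, 42 genes) 0.256, all above the receptors' 0.131. The taste receptor level was carried by the sweet and umami receptor genes Tas1r1 (1.90), Tas1r3 (1.16) and Tas1r2 (0.632), named after their values were seen. The median taste receptor gene had 0.140, close to the 0.129 of the median olfactory or vomeronasal receptor gene. Median GC content was 41.1% for Taar, 38.8% for Fpr, 42.6% for Krtap and Defb, 36.9% for taste receptors and 37.0% for the receptors. Uniqueness was not computed for these families, and the part of GC content in their levels was not tested. The 90 genes whose symbols start with Rpl or Rps had a pooled level of 1.71, and the median gene 2.99. Most encode ribosomal proteins, but the list also holds kinase genes such as Rps6ka5 (0.467). The geometric mean of cluster 3 over the rest was 0.829, 0.955, 0.942, 1.07 and 1.19 in the silent families. It was 0.697 in the Rpl and Rps genes and 1.29 in the receptors. The E12.5 ratio over later libraries was 0.956, 1.11, 0.860, 1.19 and 1.21 in the silent families, and 0.803 in the Rpl and Rps genes. Krtap and Defb genes thus had stage ratios like the receptors' 1.19, and by this geometric mean the receptors were above all 5 families in cluster 3. By library the order varied. At E12.5 Defb genes had 1.30 against 1.16 in the receptors, and Taar genes had 0.462, 1.14 and 1.08 in stage order. These differences between families were not tested.

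Series-wide facts that touch these values are few. The libraries held 8603028, 66925016 and 39513357 fragments in listed nuclei, with medians of 30239, 62902.5 and 43485.5 per nucleus, so E12.5 was the shallowest. E13.5 and E15.5 shared 1 barcode sequence, and 5, 32 and 138 nuclei shared at least 10% identical fragments with another. With 1 barcode kept per such group the stage ratio was 1.19 and the cluster 3 difference 0.37 on the log2 scale, while the genes called in cluster 3 went from 38 to 1.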

How the data were processed

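The 3 snATAC-seq libraries, 1 per stage, were taken as deposited. Per the labels and file headers, the authors aligned and deduplicated reads with Cell Ranger ATAC 2.0.0 against mm10, and the submitters' processing notes also name Seurat 4.1.0 and Signac 1.6.0. The deposited fragment files give 1 line per unique fragment, with ends already shifted to the insertion site, and the deposited count beside it is the number of read pairs. A deposited table gives the library, cluster number and fragment count of 1879 nuclei. The study's methods describe clusters from an integration of these nuclei, counted in ENCODE peaks, with spatial ATAC profiles. The sources used here do not state the resolution of that integrated clustering, and 20 columns of per-nucleus values were not used.

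Unique fragments that overlapped a gene body or its 2 kb upstream were counted in the listed nuclei with Python 3.11.15, numpy 2.4.6, scipy 1.17.1, pandas 2.3.3 and numba 0.67.0. Genes came from GENCODE vM21. Spans over 500 kb, repeated symbols and the Pcdh and Ugt clusters were left out, which removed 0 receptor genes. Overlapping genes share fragments, and ATAC-seq carries no strand. Uniqueness is the share of 50-base words found at a single place in mm10, and promoters were read from mm10 at GENCODE starts. Doublets were not removed. The libraries held 8603028, 66925016 and 39513357 fragments in nuclei, and a floor of 3 fragments in a region of median length is a level of 0.0418, 0.00537 and 0.00909.

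Sums carry exact Poisson, ratios exact ratio-of-counts and shares exact Clopper-Pearson 95% intervals, which cover counting error only. No stage has a replicate, so no test was made between stages. Clusters were compared with edgeR 4.0.16 (R 4.3.3), after TMM scaling and filterByExpr, on sums of at least 10 nuclei and 100000 gene fragments in each library, with Benjamini-Hochberg adjustment over all genes tested and a threshold of 0.05. Libraries are the replicates of a cluster there, and nuclei never are. The fit was also run on simulated counts, and the outcome is not given here. DESeq2 1.42.0 was an alternative.

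The members, gene lists and tests were chosen with earlier results of these data known. Genes are named by rule. By level these are the 10 highest and 5 lowest with at least 90% unique words, and the highest of each family. By stage they are the 5 highest and 5 lowest ratios, with at least 50 fragments and an interval that excludes 1. For cluster 3 they are the 5 smallest p-values in each direction, and for arrays the 5 largest. Of each pathway list the extremes by level are named. Other scalings, regions and sets of nuclei were tried, some of them chosen after seeing the data.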

Additional observations from a re-analysis of the deposited data

Results flagged for a closer look

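The receptor level of E12.5 over the mean of E13.5 and E15.5 drew attention because clusters lay on opposite sides of 1 under the same contrast. It was 1.43 in cluster 0, 1.32 in cluster 9 and 1.2 in cluster 5, with E12.5 above both later libraries in each. It was 0.941 in cluster 1 and 0.936 in cluster 2, with E12.5 below both, but the interval of cluster 1 over E13.5 (0.885 to 1.02) and that of cluster 2 over E15.5 (0.908 to 1.08) included 1. Intergenic bins of the same clusters had ratios of 1.13, 1.09, 1.22, 1.03 and 1.09. The difference between clusters was not tested, since each has 1 library per stage and 10 to 30 nuclei at E12.5.

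Barcodes that the cell table does not list, with at least 1000 fragments each, carried receptor fragments above the level of the listed nuclei. There were 36, 546 and 272 of them, and their receptor levels were 0.176, 0.228 and 0.216 in stage order, where the listed nuclei had 0.146, 0.125 and 0.121. The level over intergenic bins was 0.659, 0.701 and 0.688. At E13.5 and E15.5 these barcodes had few fragments at TSSs, 3.5% and 3.99%, but at E12.5 they had 10.7%, more than the 7.68% of listed nuclei. What these barcodes hold was not tested.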

How the results depend on the processing

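The stage ratio of 1.19 stayed above 1 under 17 alternatives, from 1.05 to 1.30, and moved beyond its counting interval under 5. It was 1.15 for the 2 kb upstream alone, 1.30 scaled to fragments in genes, 1.09 with clusters weighted equally and, chosen after seeing the data, 1.05 relative to intergenic bins and 1.17 without the deepest high nucleus of E12.5. The cluster 3 difference of 0.36 on the log2 scale was 0.54 scaled to fragments in genes and 0.12 relative to intergenic bins (chosen after seeing the data), and ran from 0.27 to 0.44 when a library was left out. The level over background of 0.522 was 0.608 for the upstream 2 kb, 0.596 for genes with 90% unique words, 0.198 against other genes and, chosen after seeing the data, 0.545 per unique kb and 0.683 in barcodes outside the table. Without a library this level over intergenic bins was 0.514 to 0.533. Against the gaps of the arrays it reversed to 1.06, but with both sets per unique kb (chosen after seeing the data) it was 0.806. The TSS ratio of 1.36 was 1.14 without overlapping genes and 1.30 to 1.43 without a library. The cause of these changes was not tested. Of genes called in cluster 3, 38 by edgeR, there were 574 by DESeq2, 16 with no minimum of fragments, 121 with E13.5 and E15.5 and all clusters of 10 nuclei, 1 with 1 barcode per linked group and 0 to 177 without a library, the 177 being without E12.5. Receptor genes by stage relative to intergenic bins were 98 higher and 54 lower, in place of 173 and 20, where all genes had 263 and 3405 in place of 574 and 1049. Of 121 alternatives for named genes 0 reversed and 3 moved, all without cluster 3, where the stage ratio of Olfr19 was 1.6 and Olfr1484 and Olfr1339 had 0 fragments at E12.5. No paired analysis was possible because each stage has 1 library, other than between clusters, where the library was the block and 44 genes, 0 of them receptors, were called without it. E12.5 was the shallowest library, with 19821 receptor fragments.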
